A study of Mus musculus with 16 samples.

Results

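The 10 genes described here encode the AP-1 family and companion immediate early transcription factors: the FOS proteins Fos, Fosb, Fosl1 and Fosl2, the JUN proteins Jun, Junb and Jund, the related bZIP factor Atf3, and the zinc finger factors Egr1 and Egr2. They were taken by gene name from the 23356 genes of the deposited table, and all 10 have a row in it. Their levels were read in bone marrow-derived dendritic cells (BMDCs) of C57BL/6 background in 8 conditions. The cells were wild-type (WT), Tmem173-/-, Irf1-/- or Irf3/7-/-, each left untreated for 18 h or given c-di-GMP for the same time. The labels give the dose as 25 µg/ml, while a figure legend of the study gives a higher dose for the RNA-seq, and the files do not settle which was used. Tmem173 encodes STING, the receptor for the bacterial second messenger c-di-GMP, and Irf1, Irf3 and Irf7 encode interferon regulatory factors that act downstream of innate sensors. There were 16 samples, 2 for each condition, and the authors combined both samples of a condition into 1 value. All cultures were grown from femur and tibia marrow with GM-CSF and IL-4, and the floating and loosely attached cells were taken as BMDCs. They are therefore mixed cultures of marrow cells rather than sorted dendritic cells, and the ages of the marrow donors are not given in the labels.

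AP-1 is a dimer. JUN proteins pair with each other or with FOS or ATF proteins through a leucine zipper, and the pair binds a short palindromic DNA element. Many of these genes are transcribed within minutes of a stimulus and then shut off again, so a sample taken at 18 h sees what is left or sustained and not the first wave. Jund is usually the steadier member, Junb and the FOS genes the inducible ones. In dendritic cells and macrophages AP-1 works beside NF-kB and the interferon regulatory factors at cytokine genes, and Atf3 is known as a feedback repressor of several of them. Egr1 and Egr2 bind a GC-rich element and are followed by the NAB corepressors.

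Values are in FPKM, fragments normalised to transcript length and to the mapped fragments of the library, which corrects for gene length and so allows levels of different genes to be set side by side. The table gives each value with the lower and upper bound of a confidence interval computed by the authors' software, printed here in parentheses. With 1 value per condition no p-value can be given and the spread between the 2 samples of a condition cannot be read. A gene was called higher or lower where the log2 difference, taken on log2(FPKM + 0.1), exceeded 2-fold, where the intervals did not overlap, and where at least 1 of both conditions reached 1 FPKM. The error after a log2 difference is the root of the summed squares of the distances from the middle to a bound of both intervals on that scale. Fosb and Fosl1 stayed below 1 FPKM in every condition, so 8 of the 10 genes could be called at all. In a bulk culture, fewer cells of a type and less RNA per cell cannot be told apart.

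The promoter sequences of 5 members are shown because their transcripts moved in the results that follow: Fos, Junb and Atf3 were higher with c-di-GMP in WT cells, Jund was lower, and Egr2 was higher in treated Tmem173-/- and Irf1-/- cells than in treated WT cells. Each run holds 250 bases before to 50 bases after an annotated start of the RefSeq annotation (GRCm38.p6), read 5′ to 3′ on the gene's own strand. Capitals mark matches to 1 of 6 motifs searched on both strands: AP-1 (TGANTCA), CRE (TGACGTCA), EGR (GCGTGGGCG), IRF (GAAANNGAA), GAS (TTCNNNGAA) and the CArG box, the element bound by serum response factor. The Fos window is at chr12:85473640-85473939 on the plus strand, the Junb window at chr8:84978699-84978998 on the minus strand, the Atf3 window at chr1:191183284-191183583 on the minus strand, the Jund window at chr8:70697489-70697788 on the plus strand and the Egr2 window at chr10:67537619-67537918 on the plus strand.
Fos: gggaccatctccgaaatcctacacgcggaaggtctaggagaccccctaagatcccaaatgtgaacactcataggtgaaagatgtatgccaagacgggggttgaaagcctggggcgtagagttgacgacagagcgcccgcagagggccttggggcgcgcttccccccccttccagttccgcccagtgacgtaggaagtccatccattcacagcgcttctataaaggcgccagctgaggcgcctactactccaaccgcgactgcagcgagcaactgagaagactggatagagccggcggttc
Junb: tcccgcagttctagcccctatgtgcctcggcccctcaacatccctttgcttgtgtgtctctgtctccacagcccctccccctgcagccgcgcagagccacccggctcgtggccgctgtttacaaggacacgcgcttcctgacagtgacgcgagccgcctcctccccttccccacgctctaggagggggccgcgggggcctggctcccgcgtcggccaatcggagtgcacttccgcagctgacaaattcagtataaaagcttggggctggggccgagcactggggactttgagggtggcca
Atf3: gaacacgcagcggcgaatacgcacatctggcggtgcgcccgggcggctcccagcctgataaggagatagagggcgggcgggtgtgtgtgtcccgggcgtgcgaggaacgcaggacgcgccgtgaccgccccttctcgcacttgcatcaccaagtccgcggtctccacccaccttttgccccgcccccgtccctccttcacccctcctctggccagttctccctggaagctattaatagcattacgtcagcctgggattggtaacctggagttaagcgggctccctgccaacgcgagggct
Jund: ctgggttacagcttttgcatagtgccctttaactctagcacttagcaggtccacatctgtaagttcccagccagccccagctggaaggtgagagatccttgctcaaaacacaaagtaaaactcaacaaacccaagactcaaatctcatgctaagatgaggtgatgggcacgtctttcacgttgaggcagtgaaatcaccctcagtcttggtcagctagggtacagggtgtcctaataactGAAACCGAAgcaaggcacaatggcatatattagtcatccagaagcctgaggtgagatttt
Egr2: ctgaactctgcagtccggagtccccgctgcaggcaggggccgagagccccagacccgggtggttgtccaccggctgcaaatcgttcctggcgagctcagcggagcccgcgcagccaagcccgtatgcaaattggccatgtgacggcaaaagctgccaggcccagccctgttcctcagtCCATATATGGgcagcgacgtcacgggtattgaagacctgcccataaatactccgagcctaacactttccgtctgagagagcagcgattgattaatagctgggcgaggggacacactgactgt

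No letters of the 6 motifs were found in the Fos, Junb and Atf3 windows, which says only that these letters are not in these windows. The Egr2 window held a CArG box whose first letter lies 72 bases before the start. Of the other 4 Egr2 windows, 2 that overlap it held the same box, another had an IRF match 197 bases and a different CArG box 72 bases before its start, and the last held no match. CArG boxes were found in 1.63% of the 32851 promoter windows of the annotation. The Jund window held an IRF match beginning 10 bases before the RefSeq start used here, which is also the start in the table, while the GENCODE gene starts downstream of this window, at chr8:70698949. Of all windows, 8.56% held that motif. The Fosl2 window held 2 IRF matches, at 250 and 220 bases before its start, while the Fosb and Jun windows held no match. Among all windows, 7.81% matched AP-1, 1.79% CRE, 0.612% EGR and 8.3% GAS. The search covered 8 of the 10 genes, in 12 windows, 5 of which belong to Egr2 and overlap in part. Egr1 was left out of the search, and no promoter entry was found for Fosl1.

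Jun, Junb and Jund are single-exon genes in the GENCODE annotation of GRCm38, and the Fos, Fosb, Fosl1, Fosl2 and Atf3 transcripts have 4 exons and those of Egr2 have 2. Jun lies at chr4:95049036-95052222 in the table, Junb at chr8:84976909-84978748, Jund at chr8:70697739-70700616, Fos at chr12:85473901-85477270, Atf3 at chr1:191170297-191183333 and Egr2 at chr10:67537869-67542188. Jun overlaps Junos, Junb overlaps Prdx2, Jund overlaps Gm11175, Atf3 overlaps Gm24748 and Fosl1 overlaps Ccdc85b, in each case on the opposite strand. The library kit keeps the strand, but whether the counting behind the FPKM table used it is not given in the sources used here, though the study names a strand setting for another quantification, so reads of these overlapping genes may not have been told apart.

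The targeted transcripts were checked first. Tmem173 stood at 8.97 and 7.49 FPKM in untreated and treated Tmem173-/- cells, against 103 and 118 FPKM in WT cells. Irf1 was at 25.9 and 116 FPKM in Irf1-/- cells against 149 and 245 FPKM in WT cells. In Irf3/7-/- cells Irf7 was at 1.07 and 4.97 FPKM against 15.2 and 687 FPKM in WT cells, and Irf3 was at 7.74 FPKM untreated but 20.2 FPKM treated, against 19.9 and 15.8 FPKM in WT cells. The Irf3 value of treated Irf3/7-/- cells was thus not below WT, and values per gene do not show whether the remaining reads cover a deleted exon. All 8 dendritic cell markers were at 1 FPKM or more in every condition, and their summed level ran from 4896 to 8962 FPKM. Summed neutrophil markers, 7 of 8 of them in the table and each at 1 FPKM or more in Tmem173-/- cells, reached 20003 and 14533 FPKM in untreated and treated Tmem173-/- cells and 1407 to 4015 FPKM in the other 6 conditions. T and NK cell markers summed to 717 and 698 FPKM in WT cells and 740 and 2248 FPKM in Irf3/7-/- cells, but to 19.6 and 35.3 FPKM in Irf1-/- cells and under 1 FPKM in Tmem173-/- cells, where Gzma was at 0. Macrophage markers, 8 of 9 of them in the table, summed to 607 and 568 FPKM in Tmem173-/- cells and to 177 to 299 FPKM elsewhere, and the 4 B cell markers to between 3.34 and 10.3 FPKM. Of the macrophage list, Mertk and Fcgr1 were instead highest in treated WT cells, at 16.9 and 40.6 FPKM. In untreated and treated Tmem173-/- cells Mertk was at 2.83 and 3.74 FPKM and Fcgr1 at 29.5 and 29.3 FPKM.

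In WT BMDCs c-di-GMP was followed by higher Fos, Junb and Atf3 and lower Jund, while Fosl2, Jun and Egr1 were not called and Egr2 fell short of the 2-fold threshold. This made 3 members higher and 1 lower of the 8 that could be called. Over all 11201 genes tested in WT cells, 10.5% were called higher and 9.96% lower. The median log2 change of the 8 members was 0.47, against 0.00 for all tested genes. In Tmem173-/- cells no member was called in either direction, where 0.046% of all genes were called higher and 0.0092% lower. In Irf1-/- cells 2 members were higher and 1 lower, against 9.67% and 7.81% of all genes. In Irf3/7-/- cells 3 members were higher and none lower, against 10.2% and 7.68% of all genes.

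**Figure D1:**
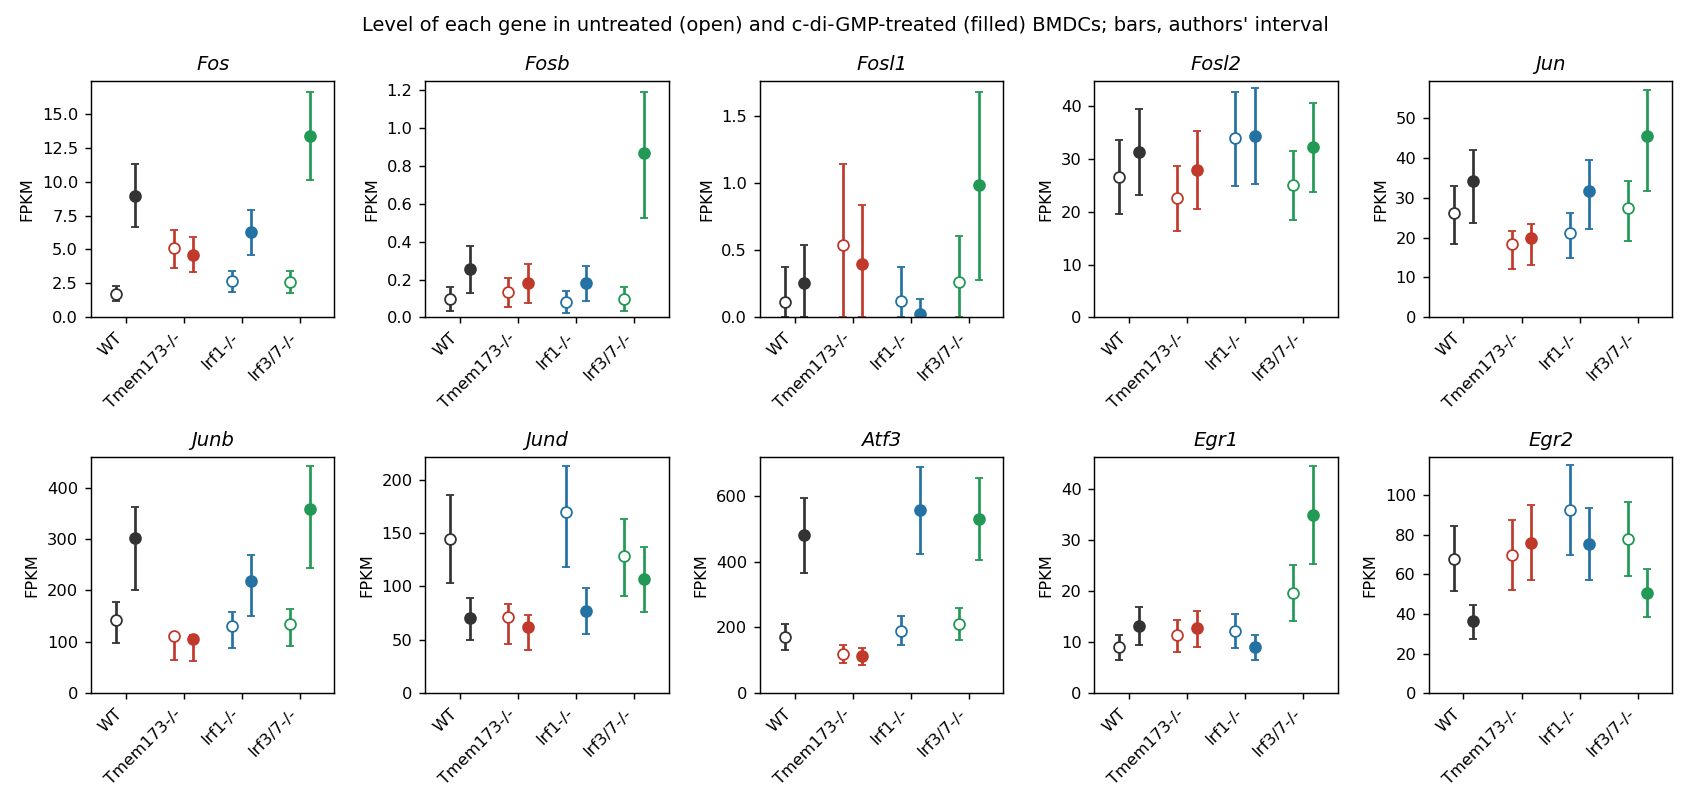
Level of each of the 10 genes in FPKM (vertical axes, each starting at 0) in the 4 genotypes; open circles are untreated and filled circles c-di-GMP-treated BMDCs, and bars are the authors' confidence intervals. Atf3 stood at 480 to 557 FPKM in the 3 treated conditions other than Tmem173-/- and at 111 FPKM in treated Tmem173-/- cells.

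Fos, the founding member of the family, was the member with the largest log2 change in WT cells. It was at 1.75 FPKM (1.18 to 2.32) in untreated and 8.95 FPKM (6.63 to 11.3) in treated WT cells. In Irf1-/- cells it was at 2.64 FPKM (1.84 to 3.44) and 6.26 FPKM (4.61 to 7.90), and in Irf3/7-/- cells at 2.61 FPKM (1.80 to 3.40) and 13.4 FPKM (10.1 to 16.6). In Tmem173-/- cells it was at 5.08 FPKM (3.67 to 6.46) untreated and 4.61 FPKM (3.32 to 5.89) treated. The treated values of WT, Irf1-/- and Irf3/7-/- cells therefore lay above their own untreated values with no overlap of intervals, and both Tmem173-/- values lay between the untreated and treated values of the other genotypes. The log2 change of Fos with c-di-GMP was 2.29 ± 0.60 in WT, 1.21 ± 0.58 in Irf1-/-, 2.32 ± 0.57 in Irf3/7-/- and -0.14 ± 0.57 in Tmem173-/- cells. Neighbours in the order of the 8 Fos levels overlapped throughout. The WT change of Fos stood at or above that of 97.0% of tested genes. The change minus that of WT cells was -2.42 ± 0.82 in Tmem173-/- and -1.07 ± 0.83 in Irf1-/- cells, both beyond the carried error. The corresponding difference for Irf3/7-/- cells was 0.03 ± 0.82 on the log2 scale. In the Irf1-/- cells the Fos call was close to the threshold, and with a pseudocount of 1 FPKM in place of 0.1 its log2 change was 0.99 and the call was lost.

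Untreated Tmem173-/- cells held more Fos than untreated WT cells, with a log2 difference of 1.48 ± 0.61, and this was a call. Over all genes in that comparison 5.04% were called higher and 5.95% lower. The treated Tmem173-/- value was below treated WT by a log2 difference of -0.94 ± 0.55, with separate intervals but under 2-fold. Tmem173-/- cells thus differed from WT in both directions, above the untreated and below the treated WT level. Summed neutrophil markers were highest in the same Tmem173-/- conditions, while Mpo of that list was highest in untreated Irf1-/- cells, at 24.7 FPKM. The part of these markers in the Fos level was not tested.

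Fosb and Fosl1, further FOS proteins with their own DNA-binding partners among the JUN proteins, were near the limit of the measurement. Fosb ranged from 0.0835 to 0.256 FPKM in 7 conditions and reached 0.871 FPKM (0.527 to 1.19) in treated Irf3/7-/- cells, with an interval apart from the next value, that of treated WT cells at 0.256 FPKM (0.126 to 0.379). Its log2 change in Irf3/7-/- cells was 2.29 ± 0.71, larger than the WT change by 1.44 ± 1.02, but no value reached 1 FPKM and none was called. Fosl1 ranged from 0.0285 FPKM in treated Irf1-/- cells to 0.987 FPKM (0.280 to 1.68) in treated Irf3/7-/- cells. The lower bound of its interval was 0 in the other 7 conditions, so its order cannot be read.

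Fosl2, which encodes FRA-2, was the most abundant FOS transcript and the most even of the 10 genes. It lay between 22.6 FPKM (16.4 to 28.6) in untreated Tmem173-/- cells and 34.4 FPKM (25.3 to 43.5) in treated Irf1-/- cells, a ratio of 1.52 between the highest and the lowest condition. Intervals of neighbours in its order overlapped throughout, and it was called in none of the 10 comparisons. Its WT log2 change with c-di-GMP was 0.23 ± 0.54. The Fosl2 to Fos ratio of levels went from 15.2 to 3.51 in WT cells, from 12.8 to 5.49 in Irf1-/- cells and from 9.60 to 2.41 in Irf3/7-/- cells. In Tmem173-/- cells it was 4.46 untreated and 6.07 treated. Even after treatment, more than 3 Fosl2 transcripts stood beside each Fos transcript in WT cells, measured per length.

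**Figure D2:**
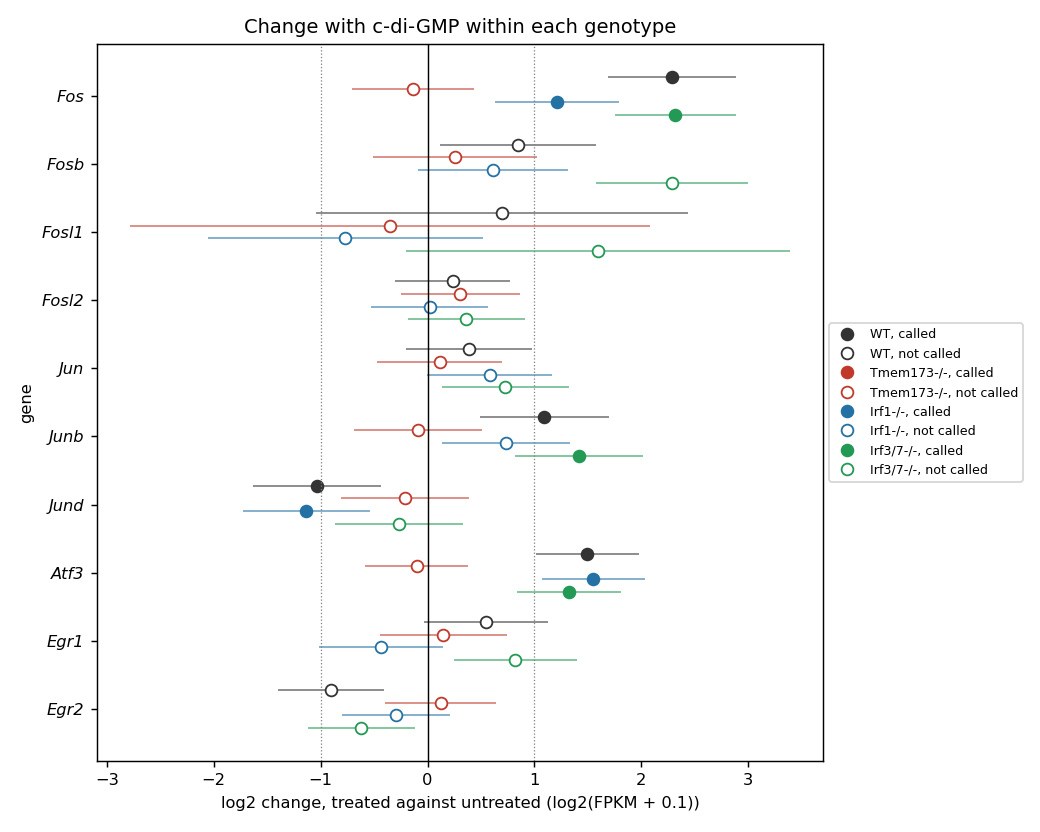
Log2 change with c-di-GMP in each genotype on log2(FPKM + 0.1) (horizontal axis) for the 10 genes; filled points were called, open points were not, bars are errors from the authors' intervals and dotted lines mark 2-fold. The Tmem173-/- points are all open, and Fos reached 2.29 in WT and 2.32 in Irf3/7-/- cells.

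Among the JUN genes, Junb rose and Jund fell in WT cells, and Jun was not called. Jun, the strongest transactivator of the family, was at 26.2 FPKM (18.4 to 32.9) untreated and 34.3 FPKM (23.6 to 42.0) treated in WT cells. Its other values ran from 18.4 FPKM in untreated Tmem173-/- to 45.4 FPKM (31.7 to 56.9) in treated Irf3/7-/- cells. All neighbours in the order of Jun levels overlapped. The largest log2 change of Jun with c-di-GMP was 0.73 ± 0.59 in Irf3/7-/- cells, under 2-fold. Treated Tmem173-/- cells held 19.8 FPKM (13.2 to 23.5), below treated WT cells by a log2 difference of -0.78 ± 0.58, and these intervals were just separate while the difference was under 2-fold.

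Junb, a JUN protein that can restrain Jun and that in dendritic cells also pairs with BATF proteins, was among the more abundant transcripts of the cells. It was at 142 FPKM (98.2 to 177) untreated and 303 FPKM (201 to 363) treated in WT cells, and at 134 FPKM (91.0 to 164) and 358 FPKM (245 to 442) in Irf3/7-/- cells. In Irf1-/- cells it was at 131 FPKM (88.2 to 159) and 218 FPKM (149 to 268), and in Tmem173-/- cells at 112 FPKM (65.2 to 117) and 105 FPKM (63.1 to 113). Treated and untreated intervals were apart in WT and Irf3/7-/- cells and overlapped in the other genotypes, and neighbours in the order of levels overlapped. The log2 change of Junb was 1.09 ± 0.60 in WT, 1.42 ± 0.60 in Irf3/7-/-, 0.73 ± 0.60 in Irf1-/- and -0.09 ± 0.60 in Tmem173-/- cells. Of the differences from WT, that of Tmem173-/- cells, -1.18 ± 0.85, was beyond the carried error, and that of Irf1-/- cells, -0.36 ± 0.85, was not, so the missed call in Irf1-/- cells does not show a smaller response. Treated Tmem173-/- cells held less Junb than treated WT cells, with a log2 difference of -1.52 ± 0.60. The Tmem173-/- intervals of Junb are not centred on the values, which lie near their upper bounds.

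Jund, the member usually expressed most constantly, was at 145 FPKM (103 to 185) in untreated and 70.7 FPKM (49.5 to 89.1) in treated WT cells. In Irf1-/- cells it was at 170 FPKM (118 to 213) and 77.2 FPKM (55.2 to 98.7). In Irf3/7-/- cells it was at 128 FPKM (90.8 to 163) and 107 FPKM (76.2 to 137). In both WT and Irf1-/- cells the treated interval lay below the untreated one, whereas in Irf3/7-/- cells they overlapped. In Tmem173-/- cells Jund was low under both conditions, at 71.3 FPKM (46.4 to 83.5) and 61.7 FPKM (40.8 to 73.3). Its log2 change was -1.03 ± 0.60 in WT, -1.13 ± 0.60 in Irf1-/-, -0.27 ± 0.60 in Irf3/7-/- and -0.21 ± 0.60 in Tmem173-/- cells. The WT and Irf1-/- changes were called but exceeded 2-fold by little. The change in Irf3/7-/- cells differed from WT by 0.76 ± 0.84 and that in Tmem173-/- cells by 0.82 ± 0.84, neither beyond the carried error. Untreated Tmem173-/- cells held less Jund than untreated WT cells, with a log2 difference of -1.02 ± 0.60, which was a call, while treated Tmem173-/- and treated WT cells differed by -0.20 ± 0.60. The untreated Tmem173-/- level of Jund was thus close to the treated WT level. The summed neutrophil markers were at 20003 FPKM in these untreated cells and 1905 FPKM in treated WT cells, and their part in the Jund level was not tested.

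Atf3, a stress-induced bZIP factor that pairs with JUN proteins and represses several cytokine genes, held the highest level of the 10 genes in all 8 conditions but was followed closely by Junb in Tmem173-/- cells. It was at 170 FPKM (131 to 209) untreated and 480 FPKM (366 to 593) treated in WT cells. It was at 190 FPKM (146 to 233) and 557 FPKM (424 to 689) in Irf1-/- cells and at 211 FPKM (162 to 260) and 529 FPKM (403 to 654) in Irf3/7-/- cells. In Tmem173-/- cells it was at 119 FPKM (91.5 to 147) and 111 FPKM (85.3 to 137). The 3 treated values other than Tmem173-/- overlapped each other and lay apart from all 5 lower values. The log2 change of Atf3 was 1.5 ± 0.48 in WT, 1.55 ± 0.49 in Irf1-/-, 1.33 ± 0.49 in Irf3/7-/- and -0.10 ± 0.49 in Tmem173-/- cells. Differences from the WT change were 0.06 ± 0.69 for Irf1-/- and -0.17 ± 0.69 for Irf3/7-/- cells, ranges of -0.63 to 0.74 and of -0.86 to 0.52 that leave a smaller difference in either direction undecided. For Tmem173-/- cells the difference was -1.60 ± 0.69. Treated Tmem173-/- cells held less Atf3 than treated WT cells by a log2 difference of -2.11 ± 0.49, the only member difference between treated cells that passed 4-fold. Untreated Tmem173-/- and untreated WT cells differed by -0.51 ± 0.48 and were not called.

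**Figure D3:**
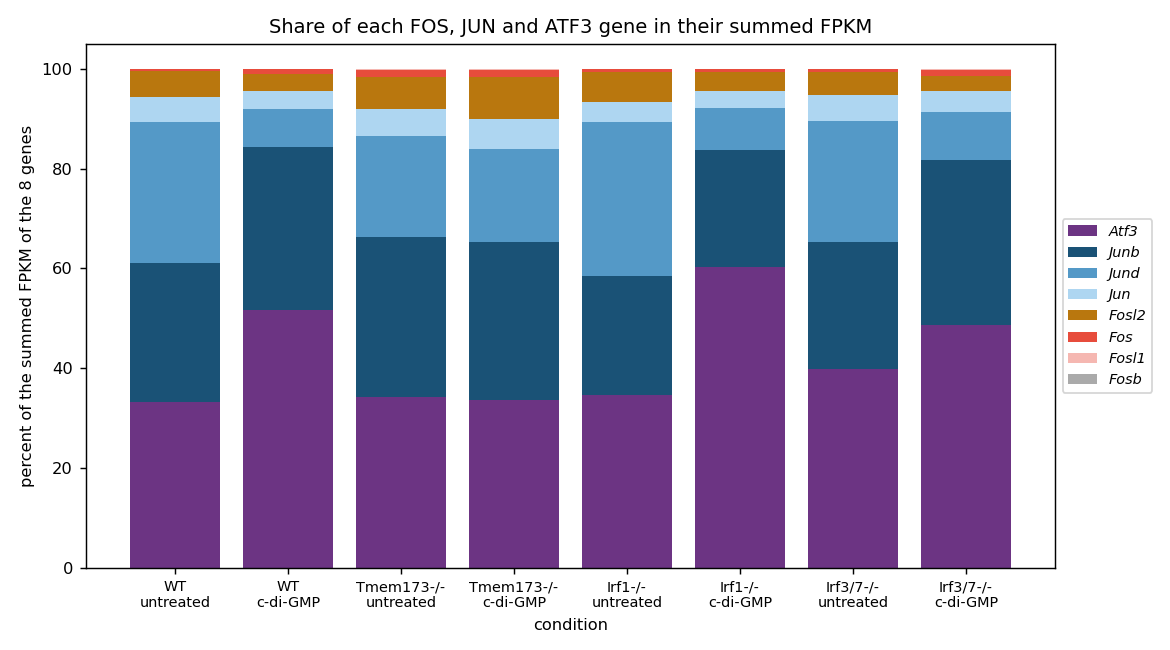
Share of each FOS, JUN and ATF3 gene (percent, vertical axis) in the summed FPKM of these 8 genes in each condition. Atf3 held 33.3% in untreated and 51.7% in treated WT cells, and Jund 28.3% and 7.62%.

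Set side by side per length, the pool of these 8 transcripts was larger after c-di-GMP and differently made up. The summed level was 512 FPKM in untreated and 929 FPKM in treated WT cells, 549 and 925 FPKM in Irf1-/- cells, 529 and 1087 FPKM in Irf3/7-/- cells, and 349 and 331 FPKM in Tmem173-/- cells. Atf3 took 33.3% of the sum in untreated and 51.7% in treated WT cells, 34.6% and 60.2% in Irf1-/- cells, 39.9% and 48.7% in Irf3/7-/- cells, and 34.2% and 33.6% in Tmem173-/- cells. Jund went from 28.3% to 7.62% in WT cells, from 30.9% to 8.35% in Irf1-/- cells and from 24.3% to 9.80% in Irf3/7-/- cells, and was at 20.4% and 18.6% in Tmem173-/- cells. The JUN genes together held 61.1% of the untreated and 43.9% of the treated WT sum, and the 4 FOS genes 5.61% and 4.40%. The ratio of Junb to Jund levels was 0.98 in untreated and 4.28 in treated WT cells, 0.77 and 2.83 in Irf1-/- cells, 1.05 and 3.36 in Irf3/7-/- cells and 1.57 and 1.71 in Tmem173-/- cells. These shares and ratios describe transcripts and not proteins or dimers, and no error was carried into them.

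With c-di-GMP, the Egr1 and Egr2 changes had opposite signs in WT and Irf3/7-/- cells and the same sign in Irf1-/- and Tmem173-/- cells, none of them called. Egr1, the prototype growth factor-induced zinc finger factor, was at 8.95 FPKM (6.43 to 11.5) untreated and 13.1 FPKM (9.42 to 16.8) treated in WT cells, at 12.1 and 8.97 FPKM in Irf1-/- cells and at 11.5 and 12.7 FPKM in Tmem173-/- cells. Irf3/7-/- cells held more, 19.7 FPKM (14.2 to 25.0) untreated and 34.8 FPKM (25.2 to 44.3) treated. The treated Irf3/7-/- interval lay just above those of all other conditions, and the intervals of the other 7 overlapped with their neighbours in order. No Egr1 change with c-di-GMP was called. In Irf3/7-/- cells the log2 change was 0.82 ± 0.57 with separate intervals but under 2-fold, in WT cells 0.54 ± 0.58 and in Irf1-/- cells -0.43 ± 0.58. The Irf1-/- change differed from the WT change by -0.98 ± 0.82, beyond the carried error.

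Irf3/7-/- cells were called higher for Egr1 than WT cells both untreated, with a log2 difference of 1.13 ± 0.58, and treated, with 1.40 ± 0.58. It was the only member called in either comparison. Over all genes, 1.17% were called higher and 0.863% lower in untreated Irf3/7-/- against untreated WT cells, and 4.61% higher and 2.69% lower in treated against treated cells. Basophil and mast cell markers summed to 164 and 251 FPKM in untreated and treated Irf3/7-/- cells and to 54.0 to 88.2 FPKM in the other 6 conditions, with all 5 markers at 1 FPKM or more in each. The T and NK cell marker sum was highest in treated Irf3/7-/- cells, mostly from Gzma (900 FPKM) and Gzmb (1242 FPKM). Klrb1c alone of that list was not highest there, at 0.618 FPKM against 4.05 FPKM in untreated Irf3/7-/- cells. The part of these markers in the Egr1 level was not tested.

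Egr2, a relative of Egr1 best known in myeloid and T cells for limiting activation, was at 68.0 FPKM (51.5 to 84.5) untreated and 36.2 FPKM (27.6 to 44.7) treated in WT cells. Its other values were 69.7 FPKM (52.2 to 87.3) and 76.1 FPKM (57.2 to 94.9) in Tmem173-/- cells, 92.6 FPKM (69.9 to 115) and 75.3 FPKM (56.9 to 93.3) in Irf1-/- cells, and 78.0 FPKM (59.0 to 96.5) and 50.7 FPKM (38.5 to 62.8) in Irf3/7-/- cells. Treated WT cells were the lowest of the 8, with an interval overlapping that of treated Irf3/7-/- cells only. The log2 change with c-di-GMP was -0.91 ± 0.50 in WT, -0.30 ± 0.51 in Irf1-/-, -0.62 ± 0.50 in Irf3/7-/- and 0.12 ± 0.52 in Tmem173-/- cells, and none was called, the WT intervals being separate at under 2-fold. Compared with the WT change, that of Tmem173-/- cells was larger by 1.03 ± 0.72, and the Irf1-/- and Irf3/7-/- differences of 0.61 ± 0.71 and 0.28 ± 0.71 were within the carried error. Egr2 was called higher in treated Tmem173-/- than in treated WT cells, by 1.07 ± 0.50, and in treated Irf1-/- than in treated WT cells, by 1.05 ± 0.50. Both exceeded 2-fold by little. The ratio of Egr2 to Egr1 levels was 7.60 in untreated and 2.77 in treated WT cells, 7.63 and 8.40 in Irf1-/- cells, 6.09 and 5.99 in Tmem173-/- cells and 3.97 and 1.46 in Irf3/7-/- cells.

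**Figure D4:**
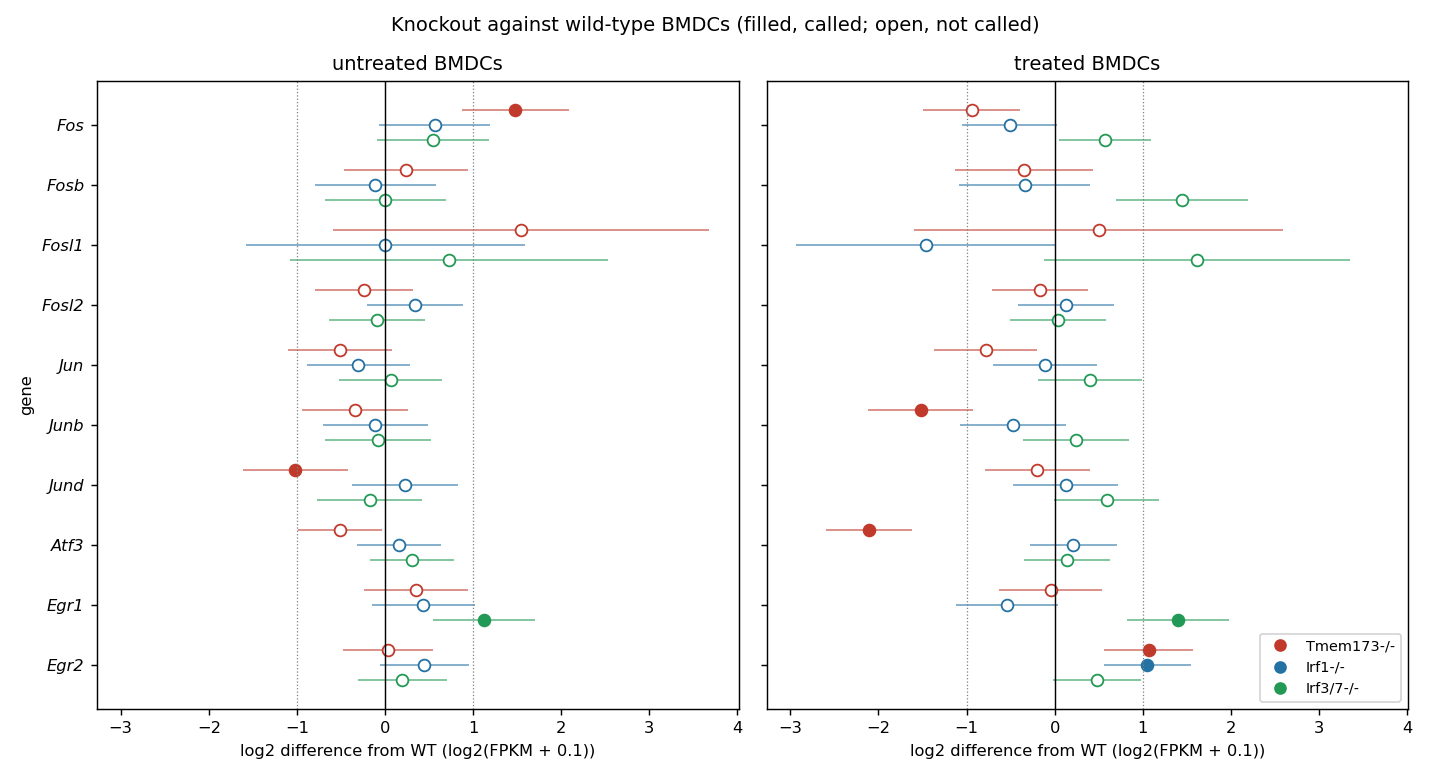
Log2 difference of each knockout from WT BMDCs on log2(FPKM + 0.1) (horizontal axes), untreated on the left and treated on the right, for the 10 genes; filled points were called, bars are errors from the authors' intervals and dotted lines mark 2-fold. Treated Tmem173-/- cells were lower for Atf3 (-2.11) and Junb (-1.52), and Irf3/7-/- cells were higher for Egr1 on both sides.

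Between treated cells, 1 member was higher and 2 were lower in Tmem173-/- than in WT cells, against 12.9% and 13.5% of all genes. In treated Irf1-/- cells 1 member was higher and none lower, against 2.65% and 4.91% of all genes. In treated Irf3/7-/- cells 1 was higher and none lower, against 4.61% and 2.69% of all genes. Between untreated cells, 1 was higher and 1 lower in Tmem173-/- cells, against 5.04% and 5.95% of all genes. None was called in untreated Irf1-/- cells, where 1.26% of all genes were higher and 3.52% lower. In untreated Irf3/7-/- cells 1 was higher and none lower, against 1.17% and 0.863% of all genes. With 8 genes that could be called, a single call is a large share, so the counts are coarse beside these percentages. The comparisons against WT share the WT conditions and are not independent of each other. Of the 30 differences between a knockout's and the WT change with c-di-GMP, 7 exceeded the carried error and 23 did not. Those 7 were Fos, Junb, Atf3 and Egr2 in Tmem173-/- cells, Fos and Egr1 in Irf1-/- cells and Fosb in Irf3/7-/- cells. The same count was not made over all genes, so 7 of 30 has no background share beside it. No member was called with c-di-GMP in Tmem173-/- cells, so the differences there largely restate the WT changes.

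Other bZIP genes, the partners and competitors of AP-1, were followed in a list of 24. In WT cells 3 were called higher and 2 lower with c-di-GMP, in Irf1-/- cells 4 and 2, in Irf3/7-/- cells 6 and 1, and in Tmem173-/- cells none of 23. Over all genes the shares called higher and lower were 10.5% and 9.96% in WT, 9.67% and 7.81% in Irf1-/- and 10.2% and 7.68% in Irf3/7-/- cells, so the WT count was near that of all genes. In Tmem173-/- cells these shares were 0.046% and 0.0092%. The median log2 change of the list in WT cells was 0.35. Jdp2, a JUN-binding repressor, went from 18.3 to 73.3 FPKM in WT cells, from 13.8 to 32.5 FPKM in Irf1-/- cells and from 13.5 to 51.4 FPKM in Irf3/7-/- cells, and was at 11.2 and 9.87 FPKM in Tmem173-/- cells. All 3 rises were called, and treated Irf1-/- cells held less Jdp2 than treated WT cells, with a log2 difference of -1.17 ± 0.47. Ddit3, the stress factor CHOP, rose by 2.08 on the log2 scale in WT cells. Cebpb, a factor of inflammatory cytokine genes, rose by 1.78 in WT and 1.52 in Irf3/7-/- cells, and Cebpa, a factor of myeloid differentiation, fell by 1.66 in WT cells. In treated Irf1-/- cells Cebpb was at 73.5 FPKM against 240 FPKM in treated WT cells, a call. The Cebpb values lay above the upper bound of their own intervals in all 8 conditions, at 240 FPKM with an interval of 115 to 207 FPKM in treated WT cells, so its calls rest on intervals that do not hold the values.

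The BATF proteins pair with JUN proteins and bind beside IRF4 and IRF8. Each of Batf, Batf2 and Batf3 was lower in treated Tmem173-/- than in treated WT cells, with separate intervals. Batf was at 17.3 against 39.1 FPKM, Batf2 at 3.06 against 54.5 FPKM and Batf3 at 56.8 against 213 FPKM. Batf2 was at 29.1 FPKM in untreated and 54.5 FPKM in treated WT cells and at 39.4 and 49.2 FPKM in Irf3/7-/- cells, none of which was a called change. In untreated Irf1-/- cells it was at 2.59 FPKM and in treated Irf1-/- cells at 34.6 FPKM, a called log2 change of 3.69 ± 0.60, and in Tmem173-/- cells it was at 2.75 and 3.06 FPKM. Untreated Batf2 was thus low in Irf1-/- and Tmem173-/- cells, the genotypes with the lowest T and NK cell marker sums. Irf1 was also low in both, at 25.9 and 24.1 FPKM untreated, against 149 FPKM in untreated WT and 164 FPKM in untreated Irf3/7-/- cells. The part of either in the Batf2 level was not tested. Batf3, needed for a lineage of cross-presenting dendritic cells, was at 126 and 213 FPKM in WT cells, with a log2 change of 0.76 that was not called, and Batf, at 28.9 and 39.1 FPKM, was not called either.

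Other immediate early genes were followed in a second list of 24. In WT cells 7 of 23 tested were called higher and 4 lower, beside the 10.5% and 9.96% of all genes. In Irf1-/- cells 5 and 5 were called, beside 9.67% and 7.81%, and in Irf3/7-/- cells 5 and 3, beside 10.2% and 7.68%. None of 22 was called in Tmem173-/- cells, where 0.046% and 0.0092% of all genes were. Csrnp1, an AXIN1-induced nuclear factor, went from 22.9 to 93.2 FPKM in WT cells. The orphan nuclear receptor Nr4a2 went from 2.01 to 7.64 FPKM in WT cells. Myc went the other way, from 44.1 to 9.03 FPKM in WT, from 45.3 to 15.4 FPKM in Irf1-/- and from 42.8 to 15.8 FPKM in Irf3/7-/- cells, against 40.1 and 40.0 FPKM in Tmem173-/- cells. Trib1, a pseudokinase adaptor that promotes C/EBP degradation, fell by 2.10 on the log2 scale in WT cells.

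Egr3, which shares its binding element with Egr1 and Egr2, went from 4.80 to 2.24 FPKM in WT cells and from 7.82 to 1.60 FPKM in Irf1-/- cells, and both falls were called. It was at 4.74 and 7.36 FPKM in Tmem173-/- and 6.32 and 4.93 FPKM in Irf3/7-/- cells, neither change called. Treated Tmem173-/- cells held more Egr3 than treated WT cells, with a log2 difference of 1.67 ± 0.76, the direction also found for Egr2. In treated Irf1-/- cells Egr2 was called higher than in treated WT cells, while Egr3, at 1.60 against 2.24 FPKM, was not called. The corepressor Nab2 was at 17.8 and 9.03 FPKM in WT cells and its relative Nab1 at 13.9 and 15.6 FPKM, and neither was called in any genotype. The Nab2 intervals were wide, and in Irf1-/- cells it was at 17.4 FPKM (5.98 to 28.8) and 6.10 FPKM (0.197 to 13.8). Its missing call therefore does not show a steady level.

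**Figure D5:**
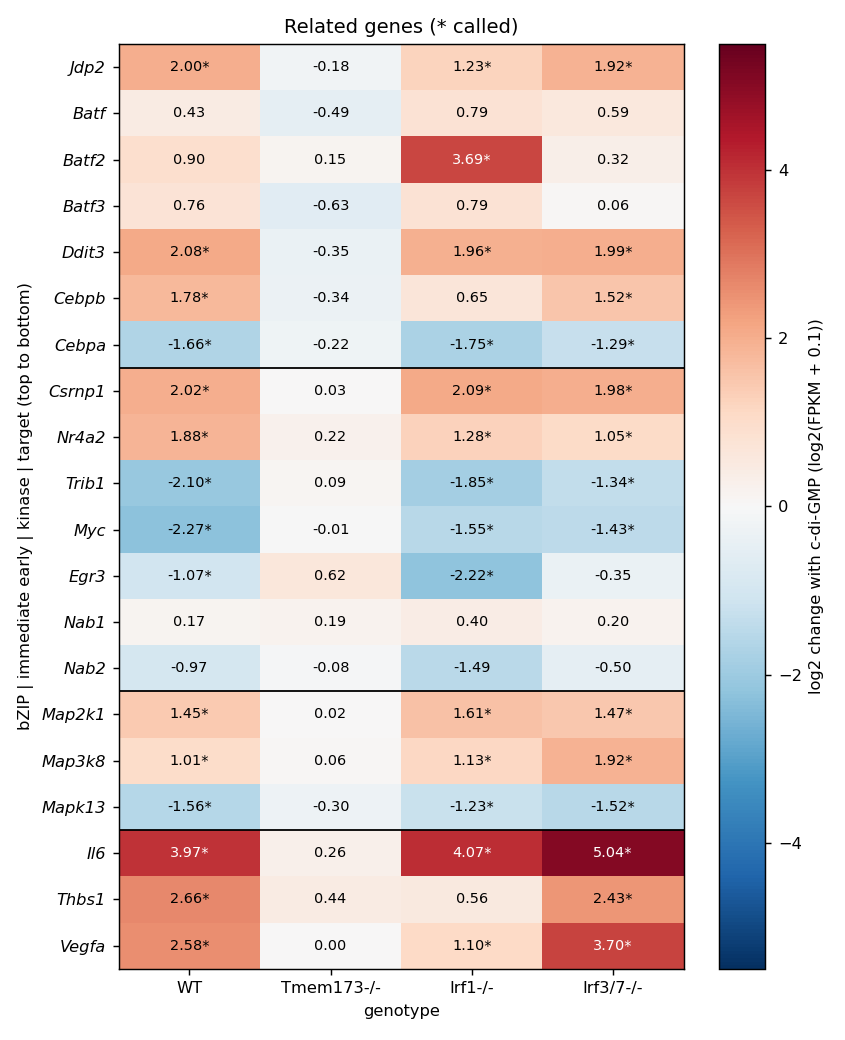
Log2 change with c-di-GMP on log2(FPKM + 0.1) of related genes (rows, in the order bZIP, immediate early, kinase and target) in the 4 genotypes (columns); asterisks mark calls and the colour scale runs from blue (lower) to red (higher). No gene carries an asterisk in Tmem173-/- cells, and Batf2 carries one in Irf1-/- cells, at 3.69.

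Kinases and factors that act upstream of AP-1 and EGR genes made a list of 24. In WT cells 2 of 22 tested were higher and 1 lower, beside 10.5% and 9.96% of all genes. The counts were the same in Irf1-/- cells, beside 9.67% and 7.81%, and in Irf3/7-/- cells, beside 10.2% and 7.68%. None of 23 was called in Tmem173-/- cells, where 0.046% and 0.0092% of all genes were. The median log2 change in WT cells was -0.02. Map2k1, the ERK-activating kinase MEK1, went from 43.6 to 119 FPKM in WT cells, and Map3k8, the kinase TPL2 above it, from 7.58 to 15.4 FPKM. In Irf3/7-/- cells Map3k8 went from 7.84 to 29.9 FPKM. Mapk13, a p38 isoform, fell from 12.7 to 4.24 FPKM in WT cells.

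Of 18 genes with well-known AP-1 or EGR elements, 9 were called higher and 4 lower with c-di-GMP in WT cells, beside 10.5% and 9.96% of all genes. In Irf1-/- cells 8 and 1 were called, beside 9.67% and 7.81%, and in Irf3/7-/- cells 8 and 2, beside 10.2% and 7.68%. None was called in Tmem173-/- cells, where 0.046% and 0.0092% of all genes were. The median log2 change of the 18 genes in WT cells was 0.94. The cytokine Il6 went from 21.5 to 339 FPKM in WT, from 13.5 to 228 FPKM in Irf1-/- and from 17.5 to 580 FPKM in Irf3/7-/- cells, and was at 2.56 and 3.09 FPKM in Tmem173-/- cells. Thbs1, the matrix protein thrombospondin, went from 27.7 to 176 FPKM in WT cells, was at 16.5 and 24.4 FPKM in Irf1-/- cells, and in treated cells was lower in Irf1-/- than WT by a log2 difference of -2.85 ± 0.53. Thbs1 went from 20.0 to 108 FPKM in Irf3/7-/- cells and was at 97.3 and 132 FPKM in Tmem173-/- cells. Its untreated Tmem173-/- interval (71.6 to 123) lay above that of untreated WT cells (20.6 to 34.7). Vegfa, the endothelial growth factor, went from 4.0 to 24.4 FPKM in WT, from 3.0 to 6.55 FPKM in Irf1-/- and from 5.03 to 66.5 FPKM in Irf3/7-/- cells. Treated Irf3/7-/- cells were above treated WT cells for Vegfa by 1.44 ± 0.48 and treated Irf1-/- cells below them by -1.88 ± 0.48. Over the list, 7 of 18 genes were called higher and 2 lower in treated Irf3/7-/- against treated WT cells, beside 4.61% and 2.69% of all genes. In treated Irf1-/- cells 4 were higher and 4 lower than in treated WT cells, beside 2.65% and 4.91%. Treated Tmem173-/- cells gave 4 higher and 7 lower, beside 12.9% and 13.5%. Known elements in these genes do not show which factor acted here, and binding was not measured.

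The genes whose levels ran most like each member over the 8 conditions were found by Pearson correlation of log2 values among 9269 genes, as a description without a test, since the 8 points share libraries and genotypes. For Fos they were Zfyve27 (r = 0.99), Mir22hg (0.98) and Zfp653 (0.98), of which Mir22hg went from 7.74 to 19.1 FPKM in WT cells. For Junb they were Vps11 (0.99), the TLR adaptor Ticam1 (0.99) and Stx11 (0.99), with Ticam1 at 13.5 and 26.3 FPKM and Stx11 at 15.5 and 70.9 FPKM in WT cells. The size of a change does not enter r, and the intervals were not used in it. Over the 8 conditions Vps11 ran only from 18.4 to 24.1 FPKM and Zfyve27 from 4.85 to 7.73 FPKM, while Stx11 ran from 9.82 to 95.0 FPKM. For Atf3 they were Nlgn2, Rftn1 and Srgn, each with r above 0.99, and Srgn, which encodes the granule proteoglycan serglycin, went from 517 to 2966 FPKM in WT cells. For Jund they were Wdr6 (0.98), the kinase gene Pim3 (0.95) and Aldh4a1 (0.95), with Pim3 at 49.8 and 21.7 FPKM in WT cells. Jun was most like Sec23b (0.99), Gdap10 (0.99) and Ccnk (0.99), and Fosl2, which moved least, was most like Sepsecs, Scyl2 and Ccdc88a, each with r = 0.92. For Egr1 they were Dmwd (0.97), Ppp1r3b (0.97) and Sde2 (0.94), and for Egr2 Gprc5c (0.98), Tstd3 (0.97) and Dhrs9 (0.97). Dhrs9 went from 20.8 to 6.45 FPKM in WT cells.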

How the data were processed

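RNA-seq libraries of 16 mouse BMDC samples, 2 per condition, were made with a stranded mRNA kit. The authors deposited a Cuffdiff gene tracking table of FPKM values, with both replicates of a condition combined, the bounds of a confidence interval and a status per condition. The submitters' processing notes name mm9, but the loci of 21454 of 21681 uniquely named genes overlapped the gene of that name in GRCm38, so coordinates are given on GRCm38. The untreated Tmem173-/- column is named without an agent and was identified by its partner that names one. The table holds 4 more value columns that were not used. Read depth per sample is unknown; for 4710 genes at 10 FPKM or more in each condition, the median distance from the middle to a bound of the interval was 25.2% to 25.7% of the value. For 23245 genes each of the 8 conditions carried the status OK.

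Differences were computed on log2(FPKM + 0.1) in Python 3.11.15 with numpy 2.4.6 and pandas 2.3.3 over the whole table, for 10 comparisons: c-di-GMP within each genotype, and each knockout against WT, treated and untreated. The call rule is given with the results, and status had to be OK in both conditions. The script was tested on simulated data. Members and lists were chosen with earlier results of these data known. Named from each list were the called genes with the largest WT changes, up to 4 a list (1 of them is not reported here), and Jdp2, Batf, Batf2, Batf3, Egr3, Nab1 and Nab2. Likeness used genes at 5 FPKM or more in at least 1 condition. Alternatives varied the pseudocount, the minimum, the fold threshold, the centring and each part of the call.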

Additional observations from a re-analysis of the deposited data

How the results depend on the processing

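No paired analysis was possible because the table holds 1 combined value per condition, and for the same reason no replicate could be left out. Member counts moved with the fold threshold: at 4-fold, 1 member remained called with c-di-GMP in WT cells, 0 in Irf1-/- and 1 in Irf3/7-/- cells, and 1 in treated Tmem173-/- against treated WT cells, with 0 in treated Irf1-/-, treated Irf3/7-/-, untreated Tmem173-/- and untreated Irf3/7-/- cells against WT. At 1.5-fold and with intervals alone, 5 members were called between treated Tmem173-/- and treated WT cells, Fos and Jun being added as lower. Without a minimum, 2 were called in treated Irf3/7-/- against treated WT cells, Fosb being added. Of 900 single values under the alternatives, 874 kept their call or lack of one, 16 lost the call and 10 gained it. Of the 16, 15 were lost at 4-fold and the other was Fos in Irf1-/- cells. Direction was checked for called values only, and 0 reversed. This was fixed in advance, because pseudocount, minimum, threshold and interval rule cannot turn the sign of a log2 difference. Centring moved log2 differences only by medians of -0.022 to 0.020. The count of differences between genotypes stayed within 1.5 times of 7. 

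Counts over all genes: at 4-fold they were 592 of 2291 for c-di-GMP in WT, 589 of 1952 in Irf1-/-, 500 of 2015 in Irf3/7-/- and 0 of 6 in Tmem173-/- cells. In Tmem173-/- cells they were 1 and 11 with pseudocounts of 1 and 0.01 FPKM, 10 without a minimum, 56 at 1.5-fold and with intervals alone, and 83 with fold change alone. Against WT they were, at 4-fold, 1174 of 2980 for treated Tmem173-/-, 232 of 838 for treated Irf1-/-, 207 of 818 for treated Irf3/7-/-, 422 of 1221 for untreated Tmem173-/-, 176 of 527 for untreated Irf1-/- and 36 of 224 for untreated Irf3/7-/- cells. A minimum of 5 FPKM gave 538, 460, 800, 323 and 112 for treated Irf1-/-, treated Irf3/7-/-, untreated Tmem173-/-, untreated Irf1-/- and untreated Irf3/7-/- cells. A pseudocount of 1 FPKM gave 536 for treated and 118 for untreated Irf3/7-/- cells, and 1.5-fold or intervals alone gave 350 for the latter. Fosb and Fosl1 stayed under each minimum, and Fosb was called where none was set.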
